A study of Phyllostachys edulis with 34 samples.

Results

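The comparison described here is salt against control at one time point, in moso bamboo (Phyllostachys edulis): leaves of seedlings held for 24 h in nutrient solution with 200 mM NaCl (NaCl 24h, 3 libraries) against leaves of seedlings of the group labelled CK at the same 24 h (CK 24h, 3 libraries). Its members are these 6 of the 34 RNA sequencing libraries of the series, chosen by the labels for agent and time, with every gene in the tables kept: 39089 of 59091 genes had enough reads to be tested. The question is which genes, and which genes of lignin synthesis and of its CAD family above all, stood at another level after a day of salt.

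Seedlings 30 days old were grown in 1/4 Hoagland nutrient solution, which all groups share, and RNA was taken from young leaves. The labels do not spell out CK, which is read here as nutrient solution without an added agent. The other groups held 25% polyethylene glycol (peg), 1 mM salicylic acid (SA) or 1 µM abscisic acid (ABA) at 3 h or 24 h, with NaCl and CK also at 3 h, 3 libraries each, and 4 libraries at 0 h. Of these, NaCl 3h, CK 3h and peg 24h are compared below. The remaining 3 h and 24 h groups enter the fit too, and so share in the gene filter, the scaling and the spread. The study names 3 biological replicates a group. No source used here gives how many seedlings went into each library. The p-values measure the spread between libraries of one group, estimated per gene over the 30 libraries of the fit. The libraries were made from poly-A RNA of whole leaf tissue, so fewer cells of one type and less RNA per cell cannot be told apart. The label leaf was not checked against marker genes, because the tables pair gene IDs with no names.

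Lignin is the phenolic polymer that stiffens and waterproofs the plant cell wall. It is built from alcohols that are made from phenylalanine by a chain of enzymes: PAL, C4H and 4CL form the shared entry into phenylpropanoids, HCT, C3H, CSE and CCoAOMT carry the acid through its shikimate ester and add further hydroxyl and methyl groups to the ring, CCR reduces the activated acids to aldehydes, F5H opens the branch to syringyl units, and CAD (cinnamyl alcohol dehydrogenase) reduces the aldehydes to the alcohols that are polymerised. Plants often respond to salt, a stress that combines water deficit with ion toxicity, by changing their cell walls.

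The 3 CK 24h libraries held 33281887 to 34506333 counts and the 3 NaCl 24h libraries 32549963, 38270526 and 51695158, within the range of 28153302 to 51695158 over all 34. Rank correlation of gene levels, over 16869 well-counted genes, lay between 0.987 and 0.990 for libraries of one group and between 0.682 and 0.690 across the groups, as a description of these libraries, which share a gene set. By this measure no library of the 6 stood apart from its group, and none was a copy of another (chi-square per degree of freedom of 6.01 to 55.4 between replicates). An unnamed transcript, newGene_22882, took 0.353%, 2.64% and 1.10% of the counts of the NaCl 24h libraries, beside 0.0846% to 0.168% in CK 24h. Its part in the results was not tested.

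After 24 h of salt, 11560 of the 39089 genes tested (29.6%) differed at least 2-fold from CK 24h with an adjusted p under 0.05 (edgeR quasi-likelihood test, Benjamini-Hochberg over all genes tested). Of these, 5559 (14.2%) were higher and 6001 (15.4%) lower under NaCl. In 11371 of the 11560 the FPKM values of the groups did not overlap, so a lack of overlap, where given below, adds little to a call. Which direction held more calls turned with the processing: with DESeq2 size factors 5864 were higher and 5633 lower, and without NaCl 24h replicate 1 the counts were 5551 and 5441. The median log2 fold change of all genes tested was -0.07. Among the genes that rose, 446 had 0 counts in all CK 24h libraries, and among those that fell, 300 had 0 counts in all NaCl 24h libraries. A count of 0 allows up to 3 counts, so such genes were low or undetected in that group, and they are set here at the bound that 3 counts per library give. With that, the median log2 fold change was 1.95 for genes that rose and -1.72 for genes that fell (2.03 and -1.75 as fitted). Rises of at least 4 on the log2 scale were more numerous than falls of that size, 793 against 316 (1131 and 581 as fitted), whereas between 1 and 2 there were 2748 higher and 3558 lower.

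The calls reached from rare to abundant transcripts. Of 860 genes with a mean of at least 100 FPKM (fragments per kilobase of transcript, scaled to library size), 239 (27.8%) were higher and 175 (20.3%) lower. Between 10 and 100 FPKM, 19.2% of 9582 genes were higher and 11.2% lower. At lower levels the balance turned: between 1 and 10 FPKM, 13.5% of 17489 genes were higher and 17.8% lower, and below 1 FPKM 9.93% of 11158 were higher and 14.7% lower. Lower levels carry fewer reads and thus wider errors.

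**Figure D1:**
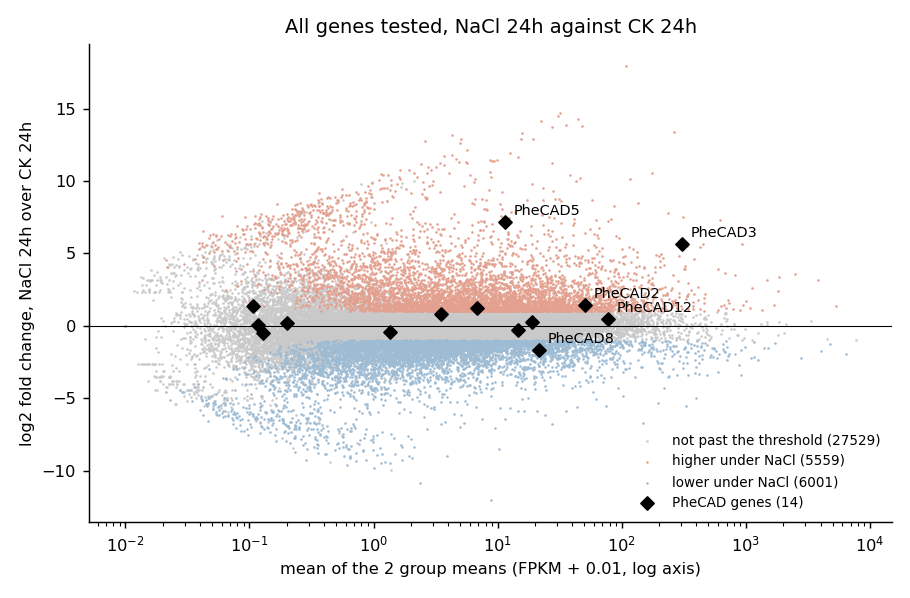
Each point is 1 of the 39089 genes tested; the x axis is the mean of the NaCl 24h and CK 24h mean levels (FPKM + 0.01, log axis) and the y axis the log2 fold change from the count model, where values for genes with 0 counts in one group depend on the model's prior and are no measure of size. Coloured points are the 5559 higher and 6001 lower genes, diamonds the 14 PheCAD genes, of which PheCAD3 and PheCAD5 sit far above the rest.

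The 14 CAD genes of moso bamboo (PheCAD1 to PheCAD14) moved apart from one another. All 14 were tested: 4 were higher (PheCAD2, PheCAD3, PheCAD5 and PheCAD13) and 1 was lower (PheCAD8) under NaCl, which is 35.7% of the family beside 29.6% of all genes, and the median log2 fold change of the 14 was 0.39. The summed level of the family was 195, 190.3 and 171 FPKM in the CK 24h libraries and 862, 785 and 856 FPKM in the NaCl 24h libraries, a ratio of means of 4.5. Most of that sum under salt was PheCAD3, at 71.3% ± 0.348 of the family's FPKM (mean ± SD, n = 3) against 6.88% ± 1.04 in CK 24h. Without it the other 13 genes summed to 179, 178 and 161 FPKM in CK 24h and 251, 225 and 244 FPKM in NaCl 24h, a ratio of 1.39.

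PheCAD3 (PH02Gene38470) read 15.8, 11.9 and 10.8 FPKM in the CK 24h libraries and 611, 561 and 612 FPKM in the NaCl 24h libraries. Every salt library lay far above every control library. The ratio of means was 46.4 and the log2 fold change 5.63 ± 0.18 (approximate standard error; adjusted p = 1.36e-19). PheCAD5 (PH02Gene38471), whose ID follows that of PheCAD3 directly, was almost silent in CK 24h, with 15, 3 and 0 counts, and had 1460, 759 and 864 counts under NaCl. In FPKM this was 0.388, 0.0564 and 0 against 26.2, 20.9 and 20.6, again without overlap, with a log2 fold change of 7.17 ± 0.60 (adjusted p = 1.74e-10); because 1 control library had 0 counts and another 3, the size of that rise is loosely known. How reads that match both genes were counted is not given, so the split of reads between the pair is uncertain.

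PheCAD2 (PH02Gene39617) stood at 29.5, 30.4 and 25.9 FPKM in CK 24h and at 74.5, 67.7 and 74.6 FPKM in NaCl 24h. The groups were well separated, with a log2 fold change of 1.44 ± 0.11 (adjusted p = 2.11e-11). PheCAD13 (PH02Gene48685) rose from a lower level, 3.57, 5.13 and 3.97 FPKM, to 10.7, 8.28 and 8.99 FPKM. Its libraries did not overlap, and the log2 fold change was 1.24 ± 0.19 (adjusted p = 4.04e-06); on the log2(FPKM + 1) scale it was 0.99 and just under 2-fold. PheCAD8 (PH02Gene13789) was the one member that fell, from 34.3, 35.3 and 30.7 FPKM to 10.02, 10.1 and 8.69 FPKM. All 3 salt libraries read lower than any control library, at a log2 fold change of -1.70 ± 0.0918 (adjusted p = 8.02e-15).

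The member with the highest level in CK 24h, PheCAD12 (PH02Gene49901), did not reach 2-fold. Its levels were 72.2, 68.2 and 61.3 FPKM in CK 24h and 90.8, 79.4 and 92.5 FPKM in NaCl 24h, without overlap, with a log2 fold change of 0.48 ± 0.12 (adjusted p = 0.00183). Its share of the family's FPKM was 36.2% ± 0.71 in CK 24h and 10.5% ± 0.351 in NaCl 24h. PheCAD4 (PH02Gene44682) read 2.12, 2.53 and 3.37 FPKM against 4.03, 4.26 and 4.69 FPKM, with a log2 fold change of 0.79 ± 0.26, below the 2-fold limit; without CK 24h replicate 3 it was 1.01 and past it. PheCAD1 (PH02Gene46268) differed little: 18.1, 16.1 and 19.1 FPKM in CK 24h and 21.5, 19.1 and 20.2 FPKM in NaCl 24h (log2 fold change 0.29 ± 0.12). The adjusted p values were 0.0117 for PheCAD4 and 0.0485 for PheCAD1.

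PheCAD14 (PH02Gene04778) was at 16.8, 18.5 and 14.6 FPKM in CK 24h and 11.9, 13.4 and 11.9 FPKM in NaCl 24h, and its log2 fold change of -0.32 ± 0.24 did not pass the test (adjusted p = 0.285). PheCAD11 (PH02Gene13791) was rare, at 1.79, 1.67 and 1.28 FPKM against 1.23, 0.824 and 1.25 FPKM, and did not pass either (log2 fold change -0.43 ± 0.66, adjusted p = 0.619). The FPKM values of both genes lay lower in all salt libraries, but no change was shown in either. How often such a lack of overlap occurs over all genes tested was not counted. PheCAD6, PheCAD7, PheCAD9 and PheCAD10 had between 0 and 0.252 FPKM in every one of the 6 libraries, with groups that overlapped, and a change in them was not detectable at this depth.

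**Figure D2:**
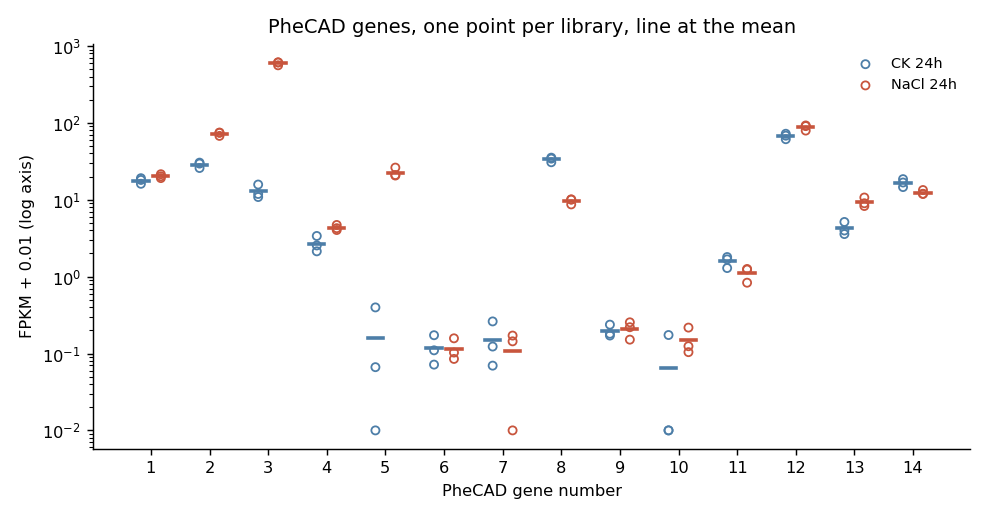
The level of each PheCAD gene is plotted by gene number (x axis) as FPKM + 0.01 on a log axis, with one open circle per library and a line at the mean of the 3 libraries of CK 24h (blue) and NaCl 24h (red). PheCAD3 reached 561 to 612 FPKM under salt, PheCAD5 went from near 0 to between 20.6 and 26.2 FPKM, PheCAD8 moved down, and 4 genes stayed near the bottom in both groups.

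Of the other 142 lignin genes described here, in 9 families, 111 were tested and 17 had 0 counts in all 6 libraries. Under NaCl 25 were higher and 16 lower, together 36.9% of those tested beside 29.6% of all genes, and their median log2 fold change was 0.21 beside -0.07 for all genes. Their summed level overlapped between the groups, at 2214, 2298 and 2172 FPKM in CK 24h and 2491, 2265 and 2406 FPKM in NaCl 24h. The families differed in which way their members moved.

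**Figure D3:**
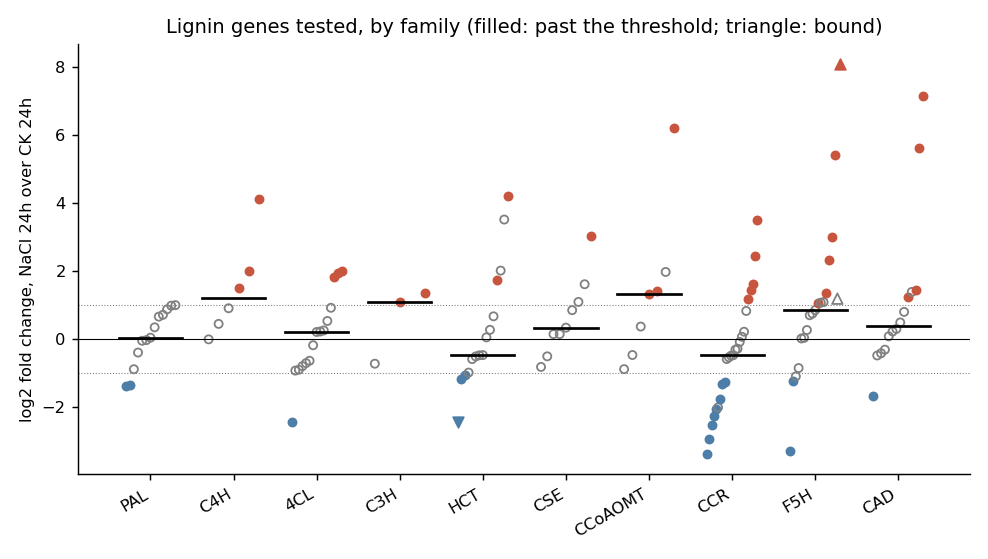
The y axis is the log2 fold change of NaCl 24h over CK 24h, each symbol one tested gene grouped by family on the x axis in pathway order, filled where past the threshold (red higher, blue lower), with a black line at the family median and dotted lines at 2-fold. Triangles are bounds for genes with 0 counts in one group; C4H, C3H, CSE and CCoAOMT hold red points and no blue ones, and CCR holds 5 red and 8 blue.

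At the entry of the pathway, PAL removes the amino group of phenylalanine. It had 0 genes higher and 2 lower of 13 tested (15.4%, beside 29.6% of all genes), with a median log2 fold change of 0.03. With unadjusted p under 0.05 and no fold limit, edgeR put 3 PAL genes up and 4 down, and DESeq2 called 1 and 2. Its most abundant gene, PH02Gene27016, read 120.5, 134 and 124 FPKM in CK 24h and 95.7, 82.5 and 88.3 FPKM in NaCl 24h. The salt libraries were all below the control ones, by less than 2-fold (log2 fold change -0.41 ± 0.10, adjusted p = 0.00135). PH02Gene23138 fell furthest among the PAL genes, from 53.3, 53.5 and 52.8 FPKM to 19.96, 18.1 and 18.1 FPKM, a log2 fold change of -1.41 ± 0.19 (adjusted p = 6.23e-07) with no overlap. The other PAL gene that fell was PH02Gene30511, from 8.34 ± 0.98 to 2.99 ± 0.279 FPKM (mean ± SD, n = 3). Summed over the family, PAL was 354, 377 and 352 FPKM in CK 24h and 321, 293 and 307 FPKM in NaCl 24h, a ratio of 0.852.

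C4H is the cytochrome P450 that hydroxylates cinnamate. By edgeR and by DESeq2, 3 of its 6 genes were higher and 0 lower (50%, beside 29.6% of all genes). With an unadjusted p under 0.05 too, 0 were lower, and the median log2 fold change was 1.20. The leading gene, PH02Gene03697, read 106, 111 and 104 FPKM against 201, 172 and 186 FPKM under salt, without overlap but under 2-fold (log2 fold change 0.90 ± 0.0958, adjusted p = 7.13e-09). PH02Gene44264 rose the most, from 1.27, 1.92 and 1.63 FPKM to 26.8, 26.9 and 24.8 FPKM. This was a log2 fold change of 4.12 ± 0.24 (adjusted p = 2.66e-14), and its share of the family's FPKM went from 1.30% ± 0.242 to 10.5% ± 0.789. The summed C4H level was 2.01 times that of CK 24h, 265, 236 and 248 against 123, 128 and 120.3 FPKM.

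4CL, which joins coenzyme A to the hydroxycinnamic acids, changed in its makeup more than in its sum. Of 15 genes tested 3 were higher and 1 lower (26.7%, beside 29.6% of all genes), with a median of 0.20, and the summed level overlapped between groups, at 350.1, 367 and 349 FPKM in CK 24h and 391, 351 and 384 FPKM in NaCl 24h. The most abundant gene in CK 24h, PH02Gene26838, read 129, 131 and 132 FPKM there and 81.2, 64.98 and 76.2 FPKM under NaCl, lower in all 3 salt libraries but by less than 2-fold (log2 fold change -0.72 ± 0.0713, adjusted p = 2.04e-09). PH02Gene34989 rose from 5.51, 5.06 and 5.50 FPKM to 21.3, 18.7 and 20.5 FPKM (log2 fold change 2.01 ± 0.13, adjusted p = 4.03e-13). PH02Gene42739 fell from 11.3, 11.1 and 11.2 FPKM to 2.14, 1.42 and 2.15 FPKM (log2 fold change -2.45 ± 0.18, adjusted p = 4.04e-12). For both the groups were far apart. Another 4CL gene that rose, PH02Gene03593, went from 25.9 ± 0.571 to 92.7 ± 3.25 FPKM (mean ± SD, n = 3), above PH02Gene26838 in the salt libraries' means.

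HCT, which passes the activated acid to shikimate and back, had 2 genes higher and 3 lower of 15 tested (33.3%, beside 29.6% of all genes), with a median of -0.48, and its sum was 250.3, 273 and 249.9 FPKM in CK 24h and 212, 185 and 196 FPKM under NaCl. The leading gene, PH02Gene47111, read 134, 147 and 136 FPKM against 68.9, 61.9 and 64.4 FPKM. It was lower in every salt library and lay on the fold limit: its log2 fold change of -0.996 ± 0.10 (adjusted p = 4.32e-09) just missed 2-fold by the count model and passed it on log2(FPKM + 1), at -1.08. PH02Gene48286 rose from 0.148, 0.364 and 0.522 FPKM to 6.68, 5.99 and 5.87 FPKM, a log2 fold change of 4.20 ± 0.50 (adjusted p = 1.09e-07) without overlap. More abundant among the HCT genes that rose was PH02Gene48963, which the study's text places in CCR and its gene list in HCT. It went from 19.6 ± 0.423 to 61.01 ± 4.93 FPKM (mean ± SD, n = 3), or from 7.61% ± 0.482 to 30.9% ± 1.25 of the family's FPKM. The largest fitted fall, in PH02Gene18490, rests on few reads: 20, 23 and 2 counts in CK 24h and 0 in each NaCl 24h library. Taking 3 counts per library for the zeros, it was at least 5.48-fold lower (adjusted p = 0.0168), and without NaCl 24h replicate 1 the adjusted p was 0.0567.

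C3H, which hydroxylates the ring of the shikimate ester, has 3 genes, of which the most abundant stood lower and the others rose. By the threshold 2 of 3 tested were higher and 0 lower (66.7%, beside 29.6% of all genes). PH02Gene03849 read 224, 218 and 217 FPKM in CK 24h and 129, 117 and 124 FPKM in NaCl 24h. All salt libraries were lower, by less than 2-fold (log2 fold change -0.73 ± 0.0819, adjusted p = 1.75e-08). PH02Gene02368 rose from 4.14, 3.94 and 3.27 FPKM to 10.3, 9.07 and 7.75 FPKM (log2 fold change 1.35 ± 0.28, adjusted p = 2.14e-04). PH02Gene43237 rose from 16.1, 15.5 and 14.1 FPKM to 32.4, 28.3 and 30.02 FPKM (log2 fold change 1.09 ± 0.11, adjusted p = 3.86e-09), close to the limit and under it on log2(FPKM + 1), at 0.94. The groups did not overlap for any of the 3 genes, a trait whose share over all genes tested was not counted. The summed level followed the abundant gene, 244, 238 and 234 FPKM in CK 24h and 171, 154 and 162 FPKM in NaCl 24h.

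CSE, the esterase that frees caffeate from its shikimate ester, had 1 gene higher and 0 lower of 9 tested (11.1%, beside 29.6% of all genes). With an unadjusted p under 0.05 edgeR had 3 up and 1 down, and DESeq2 called 2 and 0. PH02Gene34362, with 82.7% ± 1.15 of the family's FPKM in CK 24h, read 126, 124 and 115 FPKM there and 130.4, 117 and 126 FPKM under NaCl. Its groups overlapped (log2 fold change 0.14 ± 0.0785, adjusted p = 0.145). PH02Gene14766 rose from 1.57, 1.16 and 0.817 FPKM to 9.31, 9.64 and 8.03 FPKM, a log2 fold change of 3.02 ± 0.32 (adjusted p = 6.26e-09) without overlap.

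CCoAOMT methylates caffeoyl-CoA to feruloyl-CoA. By edgeR and by DESeq2, 3 of its 7 genes tested were higher and 0 lower (42.9%, beside 29.6% of all genes). With an unadjusted p under 0.05 edgeR had 4 up and 1 down, and the family's median log2 fold change was 1.32. Its summed level was 128, 137 and 122 FPKM in CK 24h and 296, 274 and 297 FPKM in NaCl 24h, a ratio of 2.24. PH02Gene07558, the most abundant by the mean of the 6 libraries, rose from 41.5, 40.8 and 37.01 FPKM to 94.04, 86.6 and 96.95 FPKM (log2 fold change 1.32 ± 0.11, adjusted p = 1.43e-10). In CK 24h alone PH02Gene12695, which was not called, held more of the family's FPKM, 38% ± 0.74 against 30.8% ± 1.33 for PH02Gene07558. Under NaCl the share of PH02Gene12695 was 20.3% ± 0.779. PH02Gene31245 came from a trace, 0.643, 0.625 and 0.932 FPKM in CK 24h, to 53.4, 48.01 and 53.96 FPKM in NaCl 24h. It rose by 6.21 ± 0.34 on the log2 scale (adjusted p = 9.79e-15), the groups lying 70.6-fold apart in mean FPKM. It made up 17.9% ± 0.347 of the family's FPKM in NaCl 24h against 0.573% ± 0.164 in CK 24h. The remaining gene that rose, PH02Gene17241, which the study's gene list and its text place in different families, went from 33.5 ± 2.17 to 82.6 ± 2.96 FPKM (mean ± SD, n = 3).

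CCR, which reduces the CoA esters to aldehydes and so supplies CAD, had the most genes tested and the most calls in number, though not in share. Of 24 tested 5 were higher and 8 lower (54.2%, beside 29.6% of all genes), with a median of -0.49. The sum was 314, 316 and 302 FPKM in CK 24h and 212, 198 and 212 FPKM in NaCl 24h, a ratio of 0.668. PH02Gene06795, the most abundant, fell from 71.9, 75.99 and 66.03 FPKM to 16.4, 15.3 and 15.9 FPKM, with groups far apart (log2 fold change -2.07 ± 0.12, adjusted p = 5.23e-14). PH02Gene04629 fell the most, from 28.03, 26.9 and 28.2 FPKM to 2.16, 2.29 and 2.83 FPKM (log2 fold change -3.41 ± 0.11, adjusted p = 2.33e-19). The genes with the next 2 IDs fell with it, PH02Gene04630 from 17.6 ± 0.0614 to 6.51 ± 0.347 FPKM and PH02Gene04631 from 14.4 ± 0.128 to 2.28 ± 0.509 FPKM (mean ± SD, n = 3). Whether reads are shared among the 3 is not given. Among the CCR genes that rose, PH02Gene03651 went from 11.9 ± 1.38 to 24.8 ± 2.07 FPKM and PH02Gene04803 from 4.78 ± 0.436 to 13.8 ± 1.16 FPKM (mean ± SD, n = 3). The largest fitted rise, PH02Gene02696, was on 7, 5 and 0 counts in CK 24h and 91, 44 and 31 in NaCl 24h. Those counts did not overlap, but the call was weak (log2 fold change 3.51 ± 1.35, adjusted p = 0.0355): leaving out any single library other than NaCl 24h replicate 3 put the adjusted p between 0.0592 and 0.114. It was also lost with DESeq2 (adjusted p = 0.0550), and by edgeR with no filter (adjusted p = 0.0517) or all 34 libraries (adjusted p = 0.0595).

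F5H, a P450 that hydroxylates the ring towards syringyl units, had 6 genes higher and 2 lower of 19 tested (42.1%, beside 29.6% of all genes), with a median of 0.85. The summed level was 301, 314 and 304 FPKM in CK 24h and 455, 424 and 438 FPKM in NaCl 24h. The most abundant gene, PH02Gene18881, read 117, 115 and 111 FPKM against 132, 124 and 126 FPKM, separated by little (log2 fold change 0.26 ± 0.0628, adjusted p = 0.00104). The rise in the sum lay more in PH02Gene21400, which went from 7.77 ± 0.596 to 58.6 ± 3.69 FPKM (mean ± SD, n = 3), or from 2.54% ± 0.141 to 13.3% ± 0.411 of the family. PH02Gene38755 had 0 counts in all 3 CK 24h libraries and 9.26, 9.81 and 10.9 FPKM in NaCl 24h. Taking 3 counts per library for the zeros, it was at least 277-fold higher under NaCl (adjusted p = 5.66e-11). PH02Gene39460 fell from 1.44, 1.55 and 1.60 FPKM to 0.195, 0.102 and 0.114 FPKM (log2 fold change -3.32 ± 0.38, adjusted p = 3.34e-08).

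**Figure D4:**
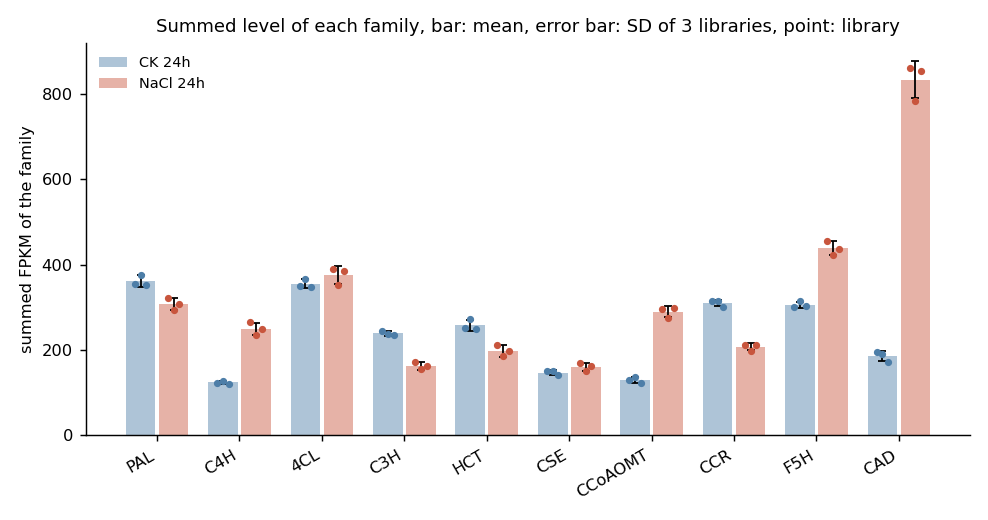
Bars give the mean summed FPKM of all listed genes of each family (y axis, from 0) in CK 24h (blue) and NaCl 24h (red), with error bars for the SD and one point per library, n = 3. The CAD sum stands highest under salt, at 785 to 862 FPKM, and the sums of PAL, C3H, HCT and CCR are lower under NaCl in every library.

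The salt response at 24 h was then set against that at 3 h, with CK 3h as the control of the earlier time, so that the effects share no library. NaCl 3h against CK 3h gave 8012 genes past the threshold (20.5%), 4243 higher (10.9%) and 3769 lower (9.64%). Of the 5559 genes higher at 24 h, 2122 (38.2%) were also higher at 3 h, which is 50.0% of those higher at 3 h, and 202 were lower at 3 h. Of the 6001 genes lower at 24 h, 1626 (27.1%) were also lower at 3 h, which is 43.1% of those lower at 3 h, and 201 were higher at 3 h. The difference between the effects was tested in the same model and passed the threshold in 8338 genes (21.3%), 3888 with a higher (9.95%) and 4450 with a lower value (11.4%) at 24 h.

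Among the PheCAD genes the 24 h effect passed the threshold above the 3 h effect in 4 and below it in 2 of 14. Over all genes these shares were 9.95% and 11.4%. PheCAD3 read 31.2, 31.6 and 31.9 FPKM in CK 3h and 534, 397 and 483 FPKM in NaCl 3h, a log2 fold change of 3.93, and its effect at 24 h was larger by 1.71 ± 0.21 (adjusted p = 2.61e-07). Its control level was lower at 24 h and its salt level higher. PheCAD2 was not called at 3 h, with 18.9, 18.9 and 18.6 FPKM in CK 3h and 23.1, 20.7 and 22.7 FPKM in NaCl 3h (log2 fold change 0.26). Its effect differed by 1.17 ± 0.16 (adjusted p = 1.07e-06). With all 34 libraries in the fit the difference no longer passed for PheCAD3 (adjusted p = 0.161) or PheCAD2 (adjusted p = 0.142). PheCAD13 had 3.26, 4.28 and 3.00 FPKM in CK 3h and 2.02, 2.51 and 1.97 FPKM in NaCl 3h, and a difference of 1.92 ± 0.28 (adjusted p = 2.55e-06).

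PheCAD4 fell at 3 h, from 3.17, 3.35 and 2.80 FPKM to 0.993, 0.788 and 1.17 FPKM (log2 fold change -1.62), while it stood above control at 24 h without passing the fold limit. The difference between its effects was 2.41 ± 0.38 (adjusted p = 8.70e-06). PheCAD12 stood above control at both times, with 46.8, 41.9 and 45.5 FPKM in CK 3h and 151, 138 and 149.7 FPKM in NaCl 3h. Its log2 fold change was 1.74 at 3 h and 0.48 at 24 h. The effect was smaller at 24 h by 1.25 ± 0.18 on the log2 scale (difference -1.25, adjusted p = 1.86e-06). For PheCAD5 the rise at 3 h was 5.09 and the difference of 2.08 ± 0.95 did not pass (adjusted p = 0.091). That call rests on the fit: the difference passed with DESeq2 (2.16, adjusted p = 0.0335), with the compared groups alone (2.08, adjusted p = 0.0327) and without CK 24h replicate 1 (4.01, adjusted p = 0.0155). PheCAD8 fell at both times, by 1.5 on the log2 scale at 3 h and 1.70 at 24 h, with a difference of -0.20 ± 0.13 (adjusted p = 0.232).

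PheCAD14 had a control level that itself moved with time, 1.93, 2.01 and 1.17 FPKM in CK 3h against 16.8, 18.5 and 14.6 in CK 24h. The difference between its effects, -1.05 ± 0.36, passed narrowly (adjusted p = 0.0236). Without single libraries (CK 24h replicate 2, CK 3h replicate 3, NaCl 24h replicate 1 or 3, or NaCl 3h replicate 2) its adjusted p lay between 0.0546 and 0.0956.

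Among the other families, PAL and C4H had been higher at 3 h in 7 of 13 and 5 of 6 genes, against 0 of 13 and 3 of 6 at 24 h. Of all genes, 10.9% were higher at 3 h and 14.2% at 24 h. The difference between the effects was lower at 24 h for 5 PAL genes and 2 C4H genes and higher for 0 of either. Of all genes it was lower in 11.4% and higher in 9.95%. The family medians of the difference were -0.95 and -0.57, beside -0.03 for all genes tested. The 4CL gene PH02Gene34989 read 3.53, 3.52 and 3.63 FPKM in CK 3h and 55.2, 45.3 and 48.9 FPKM in NaCl 3h, so that its rise at 24 h was smaller by 1.82 ± 0.18 (difference -1.82, adjusted p = 6.22e-09). CSE ran the opposite way, with 0 higher and 3 lower of 9 genes at 3 h, where 9.64% of all genes were lower. Its difference was higher at 24 h for 4 genes and lower for 0, beside 9.95% and 11.4% of all genes. Its leading gene PH02Gene34362 fell at 3 h from 106, 117 and 103 FPKM to 55.5, 46.4 and 57.2 FPKM and differed by 1.14 ± 0.11 between the times (adjusted p = 4.26e-09).

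Some of the genes described above rose more at 24 h than at 3 h. The CCoAOMT gene PH02Gene31245 stood at 0.54, 0.78 and 0.484 FPKM in CK 3h and 1.41, 0.489 and 1.35 FPKM in NaCl 3h, and differed by 5.36 ± 0.47 (adjusted p = 4.79e-10). The CSE gene PH02Gene14766 was at 1.32, 0.951 and 1.31 FPKM in CK 3h and 1.23, 1.42 and 1.49 FPKM in NaCl 3h, and differed by 2.78 ± 0.44 (adjusted p = 1.10e-05). The F5H gene PH02Gene21400 went from 3.68 ± 0.379 to 7.73 ± 2.15 FPKM at 3 h (mean ± SD, n = 3), and its effect at 24 h was larger by 1.91 ± 0.26 (adjusted p = 8.24e-07). Lower effects at 24 h included the CCR genes PH02Gene06795 (difference -1.57 ± 0.17, adjusted p = 2.07e-08) and PH02Gene04629 (difference -1.73 ± 0.14, adjusted p = 2.12e-10). Of the 24 CCR genes tested 3 had a higher and 8 a lower effect at 24 h, beside 9.95% and 11.4% of all genes. Time since salt and time of day cannot be told apart within one treatment, but each effect is taken against the CK of its own time.

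**Figure D5:**
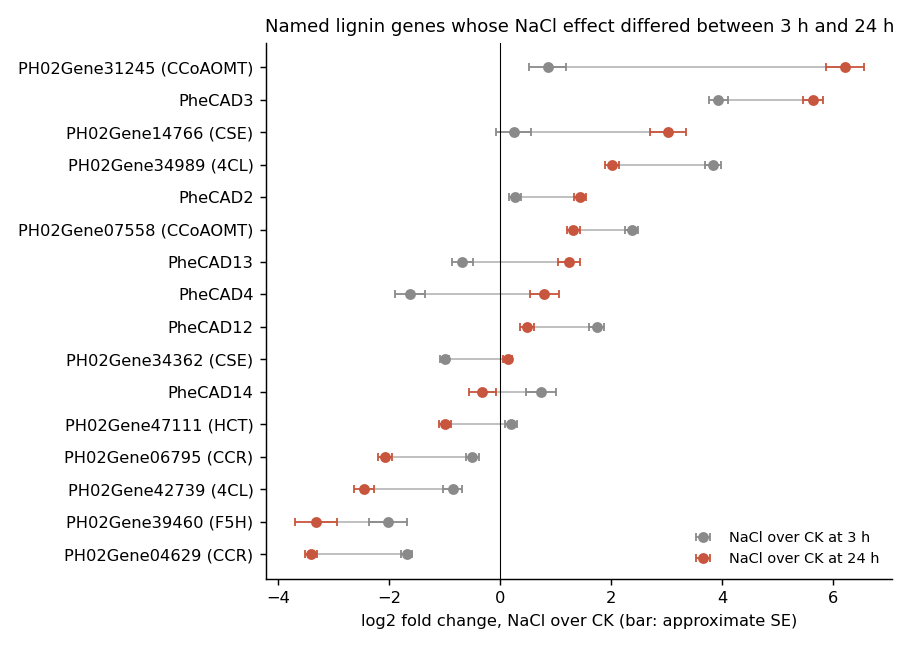
For 16 lignin genes whose NaCl effect differed between the times (all such PheCAD genes and, in each other family, such genes among its most abundant and its largest rise and fall, with counts in both groups at 24 h), grey points give the log2 fold change of NaCl over CK at 3 h and red points that at 24 h, with approximate standard errors. PheCAD4, PheCAD13, PheCAD14, PH02Gene34362 and PH02Gene47111 lie on opposite sides of 0 at the 2 times, each with at most one of its effects past the threshold.

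Polyethylene glycol lowers the water potential without adding salt, and the same CK 24h libraries serve as its control, so NaCl 24h was compared directly with peg 24h. There 8004 genes differed past the threshold (20.5%), 4585 higher (11.7%) and 3419 lower (8.75%) in NaCl 24h. Of the PheCAD genes 3 were higher and 1 lower in NaCl 24h, and by DESeq2 4 and 1. PheCAD4 lay on the fold limit, at a log2 fold change of 0.97 ± 0.26 by edgeR (adjusted p = 0.0034) and 1.02 by DESeq2 (adjusted p = 4.17e-04). PheCAD3 read 62.7, 60.1 and 63.3 FPKM in peg 24h, below all NaCl 24h libraries by 3.18 ± 0.16 on the log2 scale (adjusted p = 3.84e-15). PheCAD5 read 1.58, 1.22 and 0.327 FPKM in peg 24h, and NaCl 24h was higher by 4.32 ± 0.47 (adjusted p = 2.65e-08). PheCAD12 was at 14.1, 13.9 and 14.3 FPKM in peg 24h, under both CK 24h and NaCl 24h, and higher in NaCl 24h by 2.55 ± 0.13 (adjusted p = 9.03e-15).

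PheCAD8 was lower in NaCl 24h than in peg 24h, where it read 19.98, 20.6 and 20.5 FPKM (log2 fold change -1.16 ± 0.0914, adjusted p = 3.62e-11). For PheCAD13 the groups overlapped, with 9.34, 9.76 and 6.92 FPKM in peg 24h (log2 fold change 0.03 ± 0.19, adjusted p = 0.934), and no difference was detected. PheCAD2 read 38.02, 37.5 and 41.1 FPKM in peg 24h, less than in every NaCl 24h library but by under 2-fold (log2 fold change 0.82 ± 0.11, adjusted p = 7.97e-07).

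Of the 111 other lignin genes tested, 29 were higher and 12 lower in NaCl 24h than in peg 24h. Over all genes 11.7% were higher and 8.75% lower. The median log2 fold change of the 111 was 0.19, beside 0.01 for all genes. CCoAOMT had 3 higher and 0 lower of 7. Its gene PH02Gene07558 read 16.2, 18.9 and 19.9 FPKM in peg 24h, below CK 24h, and was higher in NaCl 24h by 2.26 ± 0.12 (adjusted p = 1.15e-14). PH02Gene31245 stood at 8.05, 7.25 and 10.6 FPKM in peg 24h, between CK 24h and NaCl 24h, and differed by 2.51 ± 0.27 (adjusted p = 1.72e-08). The abundant C3H gene PH02Gene03849 was lower in NaCl 24h than in peg 24h, where it had 254, 238 and 247 FPKM (log2 fold change -1.08 ± 0.0824, adjusted p = 1.97e-11).

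Beyond the lignin families the tables carry IDs without names, and 4 are given for size alone: the largest fitted rises and falls among genes of at least 10 FPKM in their higher group. The transcript newGene_5261 had 0 counts in all CK 24h libraries and 5276, 2968 and 3455 counts in NaCl 24h, at least 1120-fold higher with 3 counts per library for the zeros (adjusted p = 1.49e-15). PH02Gene45932 had 1999, 1787 and 1906 counts in CK 24h and 2, 15 and 0 in NaCl 24h (log2 fold change -8.53 ± 0.37, adjusted p = 7.47e-17). Without single libraries the log2 fold change of PH02Gene45932 lay between -11.02 and -7.89, so the size of its fall is loosely known. In the other pair the libraries of the higher group disagreed: newGene_21681 had 0 counts in CK 24h but 0, 73980 and 17747 counts in NaCl 24h (adjusted p = 6.29e-04), and PH02Gene50943 had 853, 0 and 799 counts in CK 24h and 0 in NaCl 24h (adjusted p = 0.0199). In each of these one library of the higher group was itself at 0, so the groups overlapped. For newGene_21681 the call was lost by limma on log2(FPKM + 0.1) (adjusted p = 0.0663) and on log2(FPKM + 1) without a filter (adjusted p = 0.0773), and without any one NaCl 24h library the adjusted p of PH02Gene50943 lay between 0.0508 and 0.0600.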

How the data were processed

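RNA sequencing of leaves was measured in 34 libraries of 11 groups, taken from the labels. The authors deposited raw counts per gene without normalization, and FPKM values that they computed before deposition. The submitters' processing notes name HISAT2 and DESeq2 without versions or roles; counter, genome build and annotation were not given in the sources used here.

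Counts were fitted with edgeR 4.0.16 (R 4.3.3): filterByExpr, TMM, and a quasi-likelihood fit of 10 group means to 30 libraries. The 4 libraries at 0 h were left out of it because 1 of them was known from earlier results to stand apart from the others. Contrasts were NaCl 24h against CK 24h, against peg 24h, and the 24 h effect minus the 3 h effect; NaCl 3h against CK 3h is given beside them. A call needed a Benjamini-Hochberg adjusted p under 0.05 over all genes tested and a 2-fold change, the fold the study uses. Standard errors, obtained by dividing the log2 fold change by the root of the F statistic, are approximate. A count of 0 was taken to allow 3 counts, which covers counting error only. Depth was 28153302 to 51695158 counts. Tested on simulated data for NaCl 24h against CK 24h with 36681 genes, edgeR recovered 190 of 200 genes changed 4-fold, with 4 false calls. The simulation gave all genes a common spread, and all groups the same means apart from the 200 genes in NaCl 24h. The real data differ in both, so the simulation gives no error rate for the calls reported here.

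CAD names and the 9 other families come from gene lists of the study, of which one further family is not reported here, and whose text places some genes in another family. Members and lists were chosen with earlier results of these data known. Named are all PheCAD genes. In each other family these are the member most abundant by the mean of the 6 libraries and the largest rise and fall. Every member of families of 3 or fewer was named too. Outside the families the 2 largest rises and falls with at least 10 FPKM in the higher group were named. Family members named with a mean ± SD only were chosen after their values were seen. Alternatives were DESeq2 1.42.0, its size factors, no filter, other sets of libraries, the replicate number as a block, limma 3.58.1 on log2(FPKM + 1) or log2(FPKM + 0.1), and leaving out each library. Whether the replicate numbers pair libraries was not settled.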

Additional observations from a re-analysis of the deposited data

Results flagged for a closer look

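The effect of NaCl at 24 h differed from that at 3 h by the test of the difference itself in 20 of the genes picked by the naming rule, with no library shared between the effects. Each value is the log2 fold change at 24 h minus that at 3 h. Among the CAD genes it was 2.41 for PheCAD4, 1.92 for PheCAD13, 1.71 for PheCAD3, 1.17 for PheCAD2, -1.05 for PheCAD14 and -1.25 for PheCAD12. In 4CL it was -1.82 for PH02Gene34989 and -1.60 for PH02Gene42739, and in HCT -1.19 for PH02Gene47111. The CSE genes PH02Gene34362 and PH02Gene14766 had 1.14 and 2.78, and the CCoAOMT genes PH02Gene07558 and PH02Gene31245 had -1.05 and 5.36. The CCR genes PH02Gene06795 and PH02Gene04629 had -1.57 and -1.73, and the F5H gene PH02Gene39460 had -1.30, which passed narrowly (adjusted p = 0.0422) and was lost with DESeq2 (adjusted p = 0.0509). With all 34 libraries the calls were also lost for PheCAD3 (adjusted p = 0.161), PheCAD2 (adjusted p = 0.142), PheCAD14 (adjusted p = 0.119) and PH02Gene07558 (adjusted p = 0.130).

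In 3 more genes the CK 24h libraries all had 0 counts, so the fitted difference depends on the model's prior and is no measure of size: 8.17 for the F5H gene PH02Gene38755, 10.46 for newGene_5261 and 17.56 for newGene_21681, whose NaCl 24h libraries also ranged from 0 to 73980 counts. PH02Gene45932 differed by -5.19, a call that was lost with all 34 libraries (adjusted p = 0.0909).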

How the results depend on the processing

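Calls for NaCl 24h against CK 24h moved most with limma on FPKM and with the fold limit. By limma on log2(FPKM + 1), 7018 genes passed (3388 higher, 3630 lower) with a filter on low values and 7384 (3575 and 3809) without, and on log2(FPKM + 0.1) 9024 (4035 and 4989). These fits differ from edgeR in both values and model, and the cause was not tested. With no minimum fold, 20910 passed (10181 and 10729). DESeq2 gave 11887, the 6 libraries alone 12270, and all 34 libraries 11165, each within 1.5 times of 11560. Leaving out each library gave 10820 to 10992. The difference between times ranged from 7173 to 9827 genes and the contrast with peg 24h from 7414 to 8549. With all 34 libraries the differences between times of PheCAD3 (adjusted p = 0.161), PheCAD2 (adjusted p = 0.142), PheCAD14 (adjusted p = 0.119), PH02Gene07558 (adjusted p = 0.130), PH02Gene45932 (adjusted p = 0.0909) and PH02Gene39460 (adjusted p = 0.220) no longer passed, with values that hardly moved. PH02Gene39460 also lost its difference with DESeq2 (adjusted p = 0.0509), with no filter (adjusted p = 0.07) and without most single libraries (-1.33 to -0.92), PH02Gene07558 had -0.999 to -0.915 without 6 of them, and PheCAD14 gave -0.99 to -0.82 in the fits lost without a single library. Signs turned only where a library was left out and the value was near 0 or unsure: the difference between times of PH02Gene23138 (-0.071 to 0.26), PH02Gene44264 (-0.36 to 0.14) and PH02Gene48286 (-1.18 to 0.46), and PheCAD13 against peg 24h (-0.14 to 0.097).

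For libraries with the same replicate number, deviations from the group mean were weakly correlated. The correlations were -0.006 to 0.043 between NaCl 24h and CK 24h and -0.084 to 0.056 between NaCl 3h and CK 3h. Between NaCl 24h and peg 24h they were 0.009 to 0.092. With 3 libraries a group, such values cannot settle whether the numbers pair libraries. With the number as a replicate block, 11449 genes passed over 30 libraries (5514 higher, 5935 lower) and 11892 over the 6 compared (5976 and 5916). The block over 30 libraries lost the difference between times of PH02Gene39460 (adjusted p = 0.0544), and the block over the compared groups passed that of PheCAD5 (2.19, adjusted p = 0.0136). Depth limits genes with few reads: PheCAD6, PheCAD7, PheCAD9 and PheCAD10 and the low HCT, CCR and F5H genes could not be judged for changes of moderate size.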
